A study of Mus musculus with 8 samples.

Results

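The genes described here are 31 genes of cholesterol and fatty acid synthesis, chosen by name from the 16397 genes of the count table of E15.5 mouse hippocampus. They comprise 18 enzymes of the sterol branch, 7 enzymes of the fatty acid branch, and 6 genes of sterol sensing, SREBP processing and sterol transfer. All 31 passed the filter on low counts and entered the comparison of 13707 protein-coding genes. Hippocampi came from C57Bl/6J embryos of dams that carried an osmotic pump from E12.5. In the intrauterine growth restriction (IUGR) group, 4 samples named T1, the pump released U-46619, a thromboxane A2 analog that made the dams hypertensive. In the sham group, 4 samples named S1 or S3, the pump held vehicle only. The labels do not say what the prefixes stand for, nor whether samples came from separate litters, so p-values measure the spread between these samples. Each library was made from total RNA after removal of ribosomal RNA. The question was whether the transcripts of these pathways differed between IUGR and sham hippocampi, and whether the sterol and fatty acid branches differed in the same way.

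Cholesterol is built from acetyl-CoA through mevalonate, squalene and lanosterol, and the fatty acid branch uses the same acetyl-CoA to make palmitate, which is then elongated and desaturated. The SREBP transcription factors drive both branches. The escort protein SCAP carries them to the Golgi apparatus for cleavage when sterols are low, and the INSIG proteins hold them in the endoplasmic reticulum when sterols are high. Because the blood-brain barrier keeps out circulating lipoproteins, the brain makes nearly all of its own cholesterol, and membrane growth in the embryonic brain draws on both branches.

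SREBPs act at sterol regulatory elements in promoters, together with NF-Y, which binds CCAAT boxes, and Sp1, which binds GC boxes. RefSeq promoter windows of 300 bases (GRCm38.p6) were found for 24 of the 31 genes and were searched on both strands. The word TCACNCCAC, a form of the sterol regulatory element, was present in 1 of the 24, Hmgcs1, beside 1.46% of the 10306 tested genes with a window. CCAAT was present in 14 of 15 sterol branch genes, 4 of 5 sensing genes and 1 of 4 fatty acid genes, beside 42.9% of tested genes. GGGCGG was present in 14 of 15, 5 of 5 and 1 of 4, beside 69.3%, and the E box CACGTG in 3 of 15, 2 of 5 and 0 of 4, beside 11.4%. The promoters of Hmgcs1 (chr13:119690101-119690400, plus strand), Insig1 (chr5:28071162-28071461, plus strand), Msmo1 (chr8:64733529-64733828, minus strand) and Fasn (chr11:120824498-120824797, minus strand) follow, because the levels of these genes set out the patterns described further on. Capitals mark the sterol regulatory element word, which starts 137 bases before the RefSeq start site of Hmgcs1, and the CCAAT words in either orientation (CCAAT or ATTGG).
Hmgcs1: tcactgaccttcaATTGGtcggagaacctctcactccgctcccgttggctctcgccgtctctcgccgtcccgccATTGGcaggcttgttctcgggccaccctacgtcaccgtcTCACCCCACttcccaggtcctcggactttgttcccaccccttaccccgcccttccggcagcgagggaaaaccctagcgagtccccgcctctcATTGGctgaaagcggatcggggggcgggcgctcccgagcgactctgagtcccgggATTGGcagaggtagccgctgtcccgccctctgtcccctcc
Insig1: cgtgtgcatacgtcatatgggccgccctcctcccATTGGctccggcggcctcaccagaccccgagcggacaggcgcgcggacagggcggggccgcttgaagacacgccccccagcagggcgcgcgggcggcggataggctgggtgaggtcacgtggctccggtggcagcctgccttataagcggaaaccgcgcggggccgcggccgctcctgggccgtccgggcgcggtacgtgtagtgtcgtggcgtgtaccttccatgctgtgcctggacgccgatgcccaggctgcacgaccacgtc
Msmo1: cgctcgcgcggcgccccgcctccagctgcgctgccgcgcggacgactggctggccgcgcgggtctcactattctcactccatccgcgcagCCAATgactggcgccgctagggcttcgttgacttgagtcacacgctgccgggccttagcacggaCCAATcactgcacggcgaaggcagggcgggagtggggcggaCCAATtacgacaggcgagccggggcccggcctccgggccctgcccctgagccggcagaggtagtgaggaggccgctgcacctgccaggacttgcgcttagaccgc
Fasn: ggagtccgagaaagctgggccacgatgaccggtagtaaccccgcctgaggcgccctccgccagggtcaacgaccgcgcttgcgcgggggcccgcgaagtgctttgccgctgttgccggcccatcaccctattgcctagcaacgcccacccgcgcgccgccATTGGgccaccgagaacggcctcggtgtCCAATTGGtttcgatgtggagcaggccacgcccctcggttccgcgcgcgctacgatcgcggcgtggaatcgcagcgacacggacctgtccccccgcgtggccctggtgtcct
The Fasn window holds CCAAT words but no GGGCGG, and the Hmgcs1 window holds 4 CCAAT words. These matches describe the letters of the windows only.

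Library totals ran from 12919546 to 16672463 counts for IUGR and from 11212632 to 15405748 counts for sham samples. Levels are given as CPM, the depth-scaled count unit, on library sizes scaled by the TMM method. Some libraries stood apart in their cell makeup. The summed level of 16 tested choroid plexus markers was lowest in T1-4 (46.6 CPM) and T1-1 (57.3 CPM), while T1-5 had 313 CPM and T1-3 had 379 CPM, against 1014 to 1462 CPM in sham samples. All 16 had a negative log2 fold change, 4 of 16 were called lower, and 1 marker, Tmem72, was at a count of 0 in 1 library. The mean log2 CPM of the 16 markers, the choroid plexus score, was -0.46 to 3.18 in IUGR and 4.8 to 5.38 in sham samples. The groups share no values of this score, so a fit with it as a covariate cannot tell score from group. Meningeal fibroblast markers summed to 3191 CPM in T1-3 and 108 in T1-4, against 389 to 757 CPM in sham samples. Of 9 hippocampal and pallial identity genes none was at 0 in any library and none was called in edgeR's test, 2 had an unadjusted p under 0.05, and 8 had estimates below 0, with a median log2 fold change of -0.34. Their summed level lay between 1047 and 1294 CPM in the IUGR samples, inside the range of 889 to 1813 CPM of the sham samples. Xist was at 948 to 1593 CPM in T1-3, T1-4, T1-5 and S1-6 and at most 5.85 CPM in the other samples, whereas Ddx3y was at 115 to 224 CPM in those others. Xist was thus high in 3 of 4 IUGR and 1 of 4 sham samples, and the labels give no sex. In whole tissue, fewer cells of a type and less RNA per cell cannot be told apart.

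No gene of cholesterol or fatty acid synthesis was called differentially expressed in IUGR hippocampi. A call needed a Benjamini-Hochberg p of 0.05 or lower with a difference of 1 or more on the log2 scale, and 0 of 31 members met both in edgeR's quasi-likelihood test, DESeq2's Wald test and limma-voom, beside 1.46% of all tested genes in edgeR's test. At an unadjusted p under 0.05, 1 of 31 members passed, Scd1, beside 11.1% of all genes. This count was between 0 and 3 under the alternatives tried, beside 966 to 1916 of all genes tested in them. The IUGR and sham values did not separate fully for any of the 31, whereas 7.14% of all genes had groups that did not overlap. The estimate was below 0 for 23 of 31 members, beside 55.5% of all genes, and the median log2 fold change was -0.11, beside -0.02 for all genes tested. The 95% interval of the fold change lay between -1 and 1 for all 31, beside 76.8% of all genes. At this replication, a change of 2-fold or more lay outside the interval of each member in edgeR's fit of all 8 samples. This bound does not extend to the alternatives. Scd1 had -0.64 (SE 0.19) without T1-4 and -0.75 (SE 0.34) with the choroid plexus score as a covariate.

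**Figure D1:**
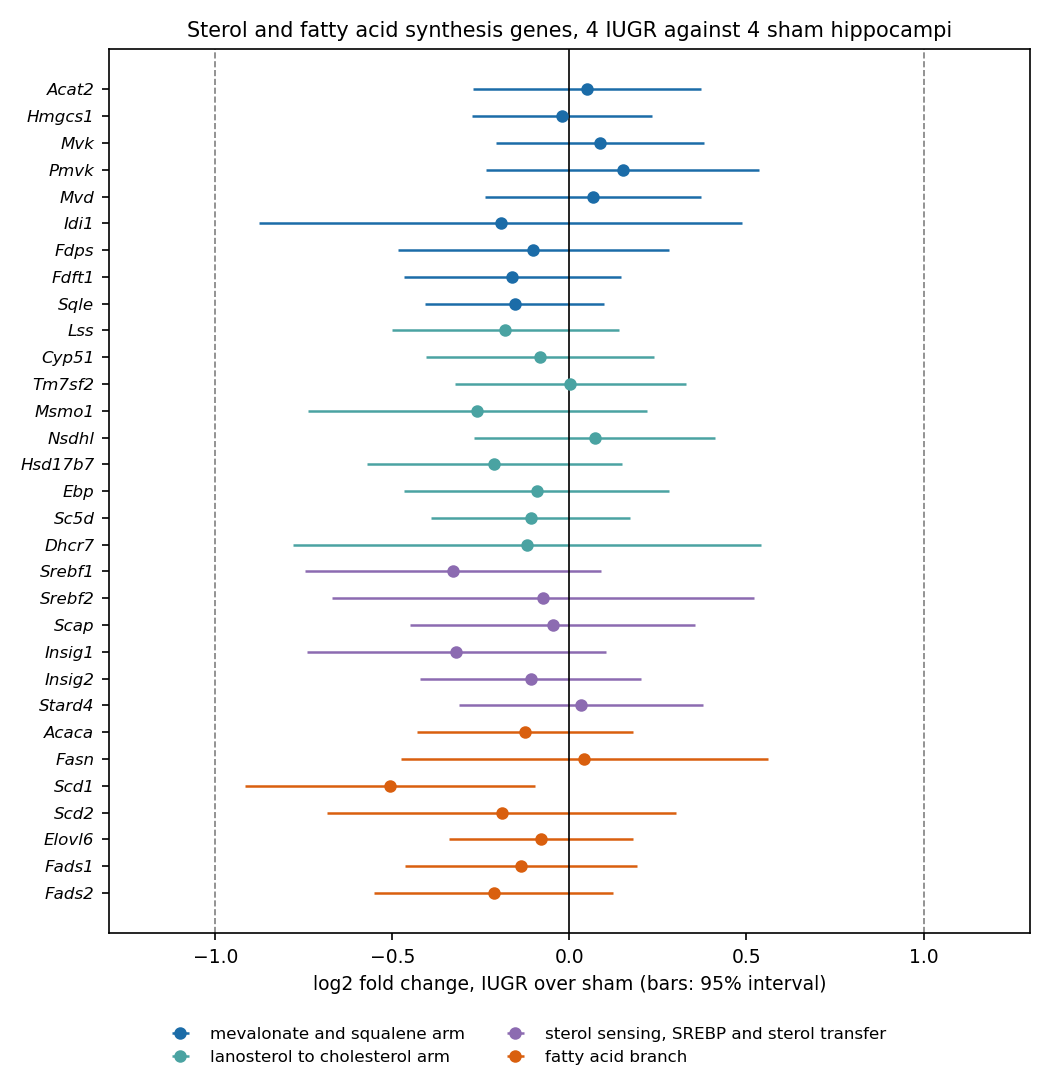
Log2 fold change of IUGR over sham (x axis) for each of the 31 genes (y axis), coloured by role, with points for the edgeR estimate and bars for the 95% interval, 4 samples per group. Each bar lies within the dashed lines at -1 and 1, and only the bar of Scd1, from -0.92 to -0.10, leaves out 0.

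The mevalonate and squalene arm turns acetyl-CoA into squalene, and its 9 enzymes had the smallest median difference of the role groups, -0.02 on the log2 scale. Hmgcs1, the HMG-CoA synthase, had the highest level of the arm, also per exon length. Its CPM values were 539, 453, 568 and 491 in T1-1, T1-3, T1-4 and T1-5, and 522, 496, 519 and 542 in S1-4, S1-6, S3-1 and S3-4. All 4 sham values lay inside the range of the IUGR values, and the log2 fold change was -0.02 (SE 0.11, 95% interval -0.28 to 0.23, edgeR adjusted p = 0.9995). Sqle, the squalene epoxidase and a rate-limiting step after squalene, was at 169, 147, 168 and 149.5 CPM in the same order of IUGR samples and at 158, 168, 191 and 188 CPM in sham samples. Only S3-1 and S3-4 lay above each IUGR sample, and the log2 fold change was -0.15 (SE 0.11, edgeR adjusted p = 0.856).

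The other 7 enzymes of the arm had log2 fold changes from -0.19 to 0.15. Acat2, the thiolase that joins acetyl-CoA units, had 0.05 (95% interval -0.27 to 0.37). The kinases Mvk and Pmvk had 0.09 (95% interval -0.21 to 0.38) and 0.15 (95% interval -0.23 to 0.53), and the decarboxylase Mvd had 0.07 (95% interval -0.24 to 0.37). Idi1, the isopentenyl diphosphate isomerase, had the lowest level and the widest interval, -0.19 (SE 0.31, 95% interval -0.88 to 0.49), with a mean count of 52. Fdps, which makes farnesyl diphosphate, had -0.10 (95% interval -0.48 to 0.28), and Fdft1, the squalene synthase, had -0.16 (95% interval -0.47 to 0.14). Adjusted p in edgeR's test was at least 0.856 across the arm. Of the 50-base words of its transcripts, Acat2 shared 39.1% with Acat3, Fdps 26.2% and Idi1 17.7% with other gene models, so reads of these 3 genes could have been split or lost in the counting. Fdft1 overlaps Ctsb on the opposite strand over 18.3% of its exon length, and the strand setting of the counting is not given in the sources used here.

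The lanosterol to cholesterol arm closes the sterol rings and trims lanosterol to cholesterol, and 7 of its 9 enzymes had estimates below 0, with a median of -0.11. Msmo1, the methylsterol monooxygenase, had the lowest estimate of the sterol branch with all 8 samples. Its CPM values were 99.2, 75.8, 117 and 111 in T1-1, T1-3, T1-4 and T1-5, and 93.6, 89.9, 168 and 131 in S1-4, S1-6, S3-1 and S3-4. The S3 pair was above each IUGR sample and the S1 pair was among them. The log2 fold change was -0.26 (SE 0.22, edgeR adjusted p = 0.918). Against the S3 samples alone it was -0.54 (SE 0.21, edgeR adjusted p = 0.418), against the S1 samples alone 0.14 (SE 0.19), with Xist as a covariate -0.08 (SE 0.26), and with the choroid plexus score as a covariate -0.57 (SE 0.38). It was -0.06 without S3-1 and -0.11 without T1-3.

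Lss, the lanosterol synthase, had -0.18 (95% interval -0.50 to 0.14), with -0.06 without T1-3 and -0.56 (SE 0.24, edgeR adjusted p = 0.349) with the choroid plexus score as a covariate. Cyp51, the lanosterol demethylase, had -0.08 (95% interval -0.41 to 0.24). Hsd17b7, a sterol ketoreductase, had -0.21 (95% interval -0.57 to 0.15), and Sc5d, a sterol desaturase, had -0.11 (95% interval -0.39 to 0.17). Tm7sf2, a sterol reductase that overlaps Vps51 on the same strand, had 0.003 (95% interval -0.32 to 0.33). The X-linked enzymes Nsdhl and Ebp had 0.07 (95% interval -0.27 to 0.41) and -0.09 (95% interval -0.47 to 0.28). Dhcr7, the last reductase of the pathway, had -0.12 with a wide interval (-0.78 to 0.54), and its level ranged from 14.8 to 25.7 CPM in IUGR and from 14.8 to 32.4 CPM in sham samples. Adjusted p was at least 0.876 across the arm in edgeR's test.

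Among the genes that sense and relay sterol status, 5 of 6 had estimates below 0 and none passed at an unadjusted p under 0.05. Srebf1 encodes the SREBP that mainly serves fatty acid genes. It was at 99.8, 91.5, 86 and 55.4 CPM in T1-1, T1-3, T1-4 and T1-5, and at 92.4, 116, 89.7 and 120.0 CPM in S1-4, S1-6, S3-1 and S3-4. T1-5 was the lowest sample, S1-6 and S3-4 were above each IUGR sample, and S1-4 and S3-1 were not. The log2 fold change was -0.33 (SE 0.19, edgeR adjusted p = 0.667), and it was -0.18 without T1-5, -0.51 (SE 0.24, adjusted p = 0.394) without T1-1 and T1-4, and -0.68 (SE 0.33, adjusted p = 0.437) with the choroid plexus score as a covariate. Srebf2 encodes the SREBP that mainly serves sterol genes. It was at 142, 141, 154 and 87.6 CPM in the IUGR samples and at 98.5, 208, 92.3 and 154 CPM in the sham samples, in the same order. Both groups held low and high samples, and the log2 fold change was -0.08 (SE 0.27, 95% interval -0.67 to 0.52).

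Insig1, itself a target of SREBP, was at 81, 55.8, 83.7 and 74.5 CPM in T1-1, T1-3, T1-4 and T1-5, and at 81.2, 69.3, 118 and 98.7 CPM in S1-4, S1-6, S3-1 and S3-4. S3-1 and S3-4 were again above each IUGR sample, and T1-3 was the lowest. The log2 fold change was -0.32 (SE 0.19, edgeR adjusted p = 0.696). It was -0.53 (SE 0.20, edgeR adjusted p = 0.411) against the S3 samples alone, -0.03 (SE 0.19) against the S1 samples alone, -0.10 (SE 0.21) with Xist as a covariate and -0.73 (SE 0.32, edgeR adjusted p = 0.372) with the choroid plexus score as a covariate. Without S3-1 or without T1-3 it was -0.17. Scap had -0.05 (95% interval -0.45 to 0.36), Insig2 had -0.11 (95% interval -0.42 to 0.20), and Stard4, which carries cholesterol between membranes, had 0.03 (95% interval -0.31 to 0.38).

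In the fatty acid branch, Scd1 had the largest difference of all 31 genes. Scd1 encodes a stearoyl-CoA desaturase, which makes monounsaturated fatty acids. It was at 16.2, 18.4, 23.1 and 14.8 CPM in T1-1, T1-3, T1-4 and T1-5, and at 30.7, 26.9, 22.8 and 22.4 CPM in S1-4, S1-6, S3-1 and S3-4. Only T1-4 reached the sham range, lying above S3-1 and S3-4. The IUGR mean was 18.1 ± 3.64 CPM and the sham mean 25.7 ± 3.88 CPM (SD, n = 4), and the log2 fold change was -0.51 (SE 0.19, 95% interval -0.92 to -0.10). The unadjusted p was 0.0203 and the adjusted p over all tested genes was 0.287 in edgeR's test, so the difference did not pass. The adjusted p was 0.245 in DESeq2's Wald test and 0.242 in limma-voom. The log2 fold change was -0.67 (SE 0.22, edgeR adjusted p = 0.419) against the S1 samples alone and -0.29 (SE 0.24, adjusted p = 0.841) against the S3 samples alone.

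Scd2, the other stearoyl-CoA desaturase among the members, was at 1111, 868, 1026 and 701 CPM in T1-1, T1-3, T1-4 and T1-5, and at 979.9, 1330, 675 and 1247 CPM in S1-4, S1-6, S3-1 and S3-4. The lowest value of all 8 was a sham sample, and the log2 fold change was -0.19 (SE 0.22, 95% interval -0.68 to 0.30). Fasn, the fatty acid synthase, was at 709, 665, 654 and 389.8 CPM in the IUGR samples and at 494, 759, 411 and 684 CPM in the sham samples, in the same order. T1-5 and S3-1 were both low, and the log2 fold change was 0.04 (SE 0.23, 95% interval -0.48 to 0.56). Acaca, the acetyl-CoA carboxylase of the committed step, was at 100.1, 79.8, 79.2 and 77.3 CPM in the IUGR samples and at 78.6, 102, 86.9 and 100.0 CPM in the sham samples. The S1-4 value lay below 3 of 4 IUGR values, and the log2 fold change was -0.13 (SE 0.14, 95% interval -0.43 to 0.18). Acaca shared 30.4% of its 50-base words with other gene models, mostly Gm5182, and Scd1 and Scd2 shared 4.56% and 3.97%, mostly with other Scd genes.

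Elovl6, which elongates palmitate, had -0.08 (95% interval -0.34 to 0.18). The desaturases of polyunsaturated fatty acids, Fads1 and Fads2, had -0.14 (95% interval -0.46 to 0.19) and -0.21 (95% interval -0.55 to 0.12). With the choroid plexus score as a covariate they had -0.53 (SE 0.24, edgeR adjusted p = 0.390) and -0.59 (SE 0.25, adjusted p = 0.345), without T1-1 and T1-4 -0.35 and -0.40, and without T1-5 -0.05 and -0.10. The edgeR adjusted p of the 6 genes other than Scd1 was at least 0.826.

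**Figure D2:**
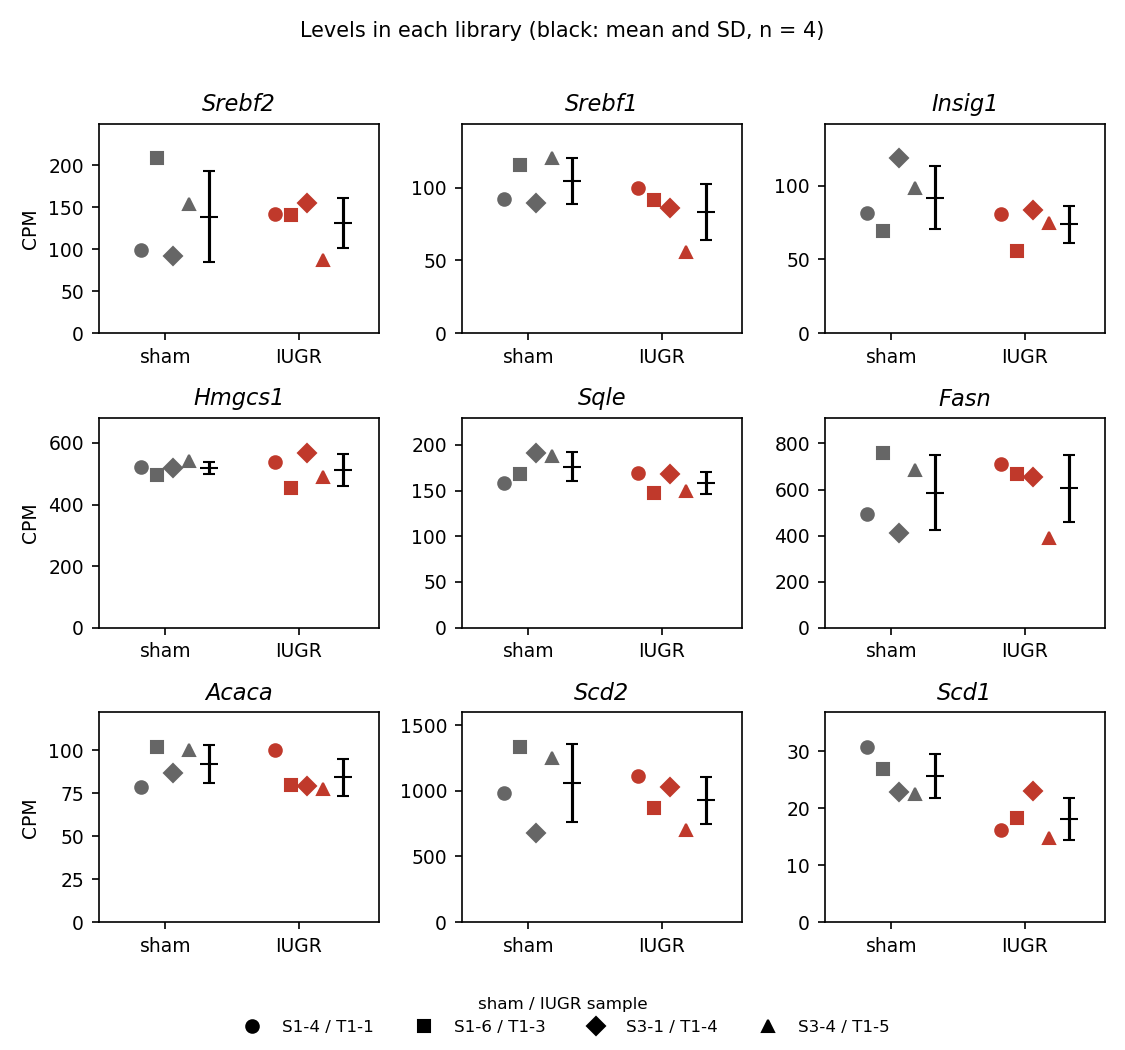
CPM in each library (y axis, from 0) for 9 genes of regulation, sterol synthesis and fatty acid synthesis, by group (x axis), with black bars for the mean and SD of 4 samples. Symbols only name the sample and pair nothing. The groups overlap in each panel, and in the Scd1 panel T1-4 at 23.1 CPM is the single IUGR sample within the sham range.

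Compared per length, the fatty acid enzyme Scd2 had the highest level of the 31 genes, at 194 ± 54.1 CPM per kb of exon in sham samples (SD, n = 4). Hmgcs1 followed at 113 ± 4.18, Cyp51 at 58.4 ± 10.03 and Fasn at 53.6 ± 14.8 CPM per kb. Cyp51 and Fasn did not differ beyond their spread. Scd1 was at 5.26 ± 0.793 CPM per kb, far below Scd2, and its difference between IUGR and sham samples did not pass adjustment. At the lower end, Dhcr7 was at 4.09 ± 1.68 and Idi1 at 1.21 ± 0.416 CPM per kb. The length counts each annotated exon base once, which understates levels of genes with many alternative exons such as Acaca.

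**Figure D3:**
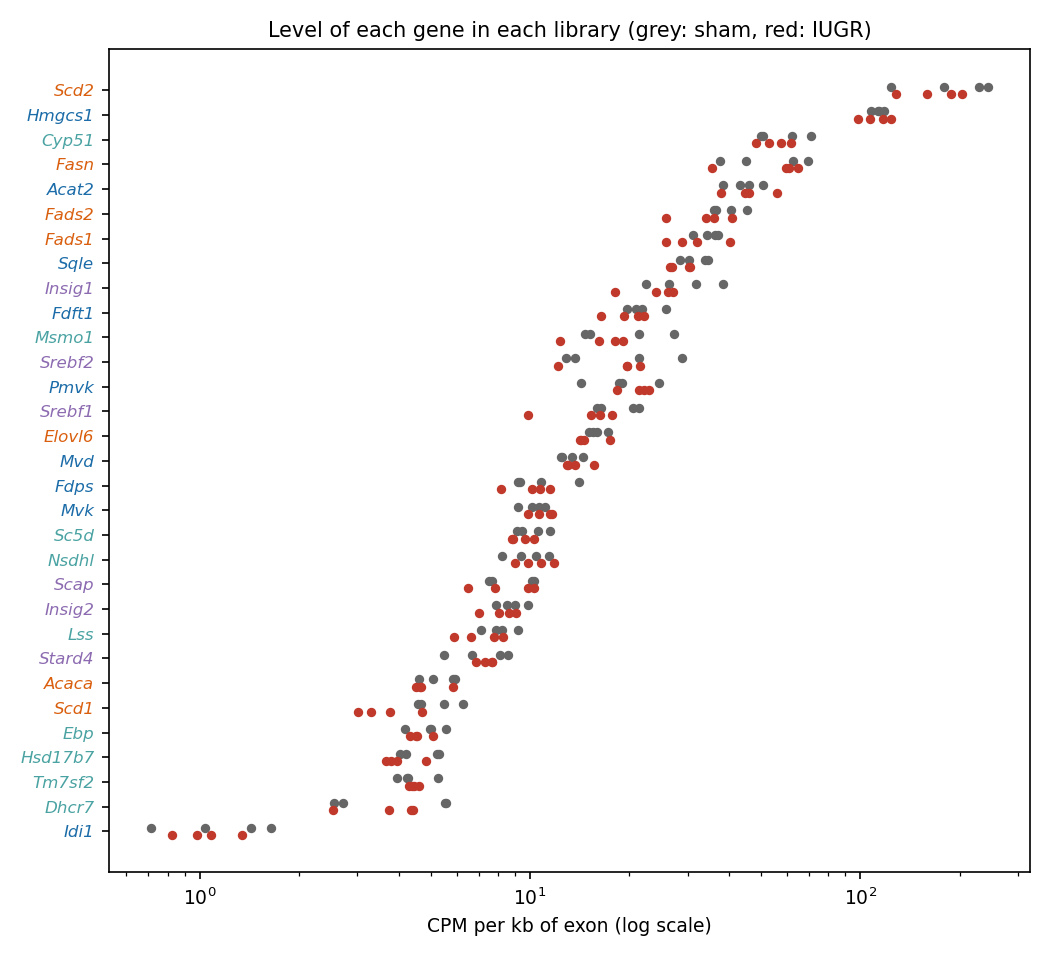
CPM per kb of exon (x axis, log scale) of the 31 genes (y axis, ordered by sham mean, names coloured by role as in the fold change plot), with each point 1 library, grey for sham and red for IUGR. Scd2 and Hmgcs1 are at the top and Idi1, at 1.21 CPM per kb in sham samples, is at the bottom.

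The sterol and fatty acid branches were then set side by side. The median log2 fold change was -0.10 over 18 sterol enzymes, of which 12 had estimates below 0, and -0.14 over 7 fatty acid enzymes, of which 6 did. The difference of the medians was 0.04 and was not tested. Samples of a group had a spread of 0.215 (SD) in another measure, the fatty acid minus sterol difference of branch means. Mean log2 CPM of the sterol branch was 5.63, 5.40, 5.59 and 5.47 in T1-1, T1-3, T1-4 and T1-5, and 5.46, 5.49, 5.74 and 5.65 in S1-4, S1-6, S3-1 and S3-4. Mean log2 CPM of the fatty acid branch was 7.37, 7.16, 7.30 and 6.88 in the IUGR samples and 7.31, 7.49, 7.14 and 7.45 in the sham samples. Both branches overlapped between groups. The fatty acid mean minus the sterol mean was 1.65 ± 0.166 in IUGR and 1.77 ± 0.255 in sham samples (SD, n = 4), with 1.41 in both T1-5 and S3-1 and 1.71 to 2.01 in the other 6.

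The fatty acid median depended on which samples were compared. Without T1-1 and T1-4, the samples with the lowest choroid plexus markers, it was -0.35, and with the choroid plexus score as a covariate it was -0.53, while the sterol median was -0.14 and -0.25. In these 2 fits 28 of 31 and 29 of 31 members had estimates below 0, beside 55.9% and 53.3% of all genes, and with 1 sample left out the count was between 20 and 25. The sterol median was 0.04 against the S1 samples alone and 0.00331 with Xist as a covariate, where the fatty acid median was -0.10. No member was called in any of these fits. The choroid plexus score separated the groups fully, so the fit that used it cannot tell score from group.

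**Figure D4:**
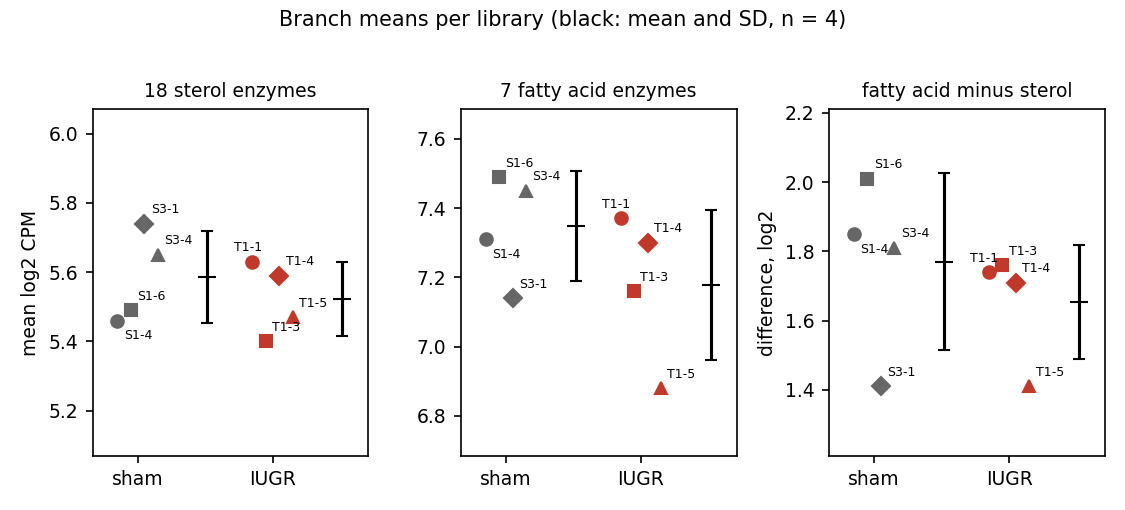
Mean log2 CPM of the 18 sterol enzymes, of the 7 fatty acid enzymes, and their difference (y axes) in each library by group (x axis), with black bars for the mean and SD of 4 samples. S3-1 has the highest sterol mean (5.74) and the lowest sham fatty acid mean (7.14).

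Within groups, the libraries with the highest and lowest values differed in part between the 2 branches. S3-1 was the highest sham sample for 11 of 18 sterol enzymes, beside 35.7% of all genes tested, and the lowest for 3 of 7 fatty acid enzymes, beside 31.2%. S1-6 was the lowest sham sample for 10 of 18 sterol enzymes, beside 25.6%, and the highest for 4 of 7 fatty acid enzymes, beside 26.2%. Among IUGR samples, T1-3 was the lowest for 10 of 18 sterol enzymes, beside 25.1%, and T1-5 was the lowest for 6 of 7 fatty acid enzymes, beside 23.4%. T1-3 also had the lowest summed level of 14 cell cycle markers, 2791 CPM, against 4477 to 6177 CPM in the other IUGR and 4608 to 5180 CPM in sham samples, and the part of this in its sterol values was not tested. T1-1 was the highest IUGR sample in both branches, for 9 of 18 sterol and 5 of 7 fatty acid enzymes, beside 24.5%. These counts are descriptions of 8 libraries, and genes of a pathway are not independent of each other.

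In the libraries S3-1 and T1-5, single members deviated from their group in different directions. In S3-1, the deviation from the sham mean of log2 CPM was 0.39 for Insig1, 0.52 for Msmo1 and 0.30 for Cyp51, and -0.50 for Srebf2, -0.47 for Fasn and -0.60 for Scd2. In T1-5, it was -0.55 for Srebf2, -0.59 for Fasn, -0.55 for Srebf1 and -0.53 for Dhcr7 against the IUGR mean, and 0.03 for Insig1 and 0.17 for Cyp51. Dhcr7, a sterol enzyme, had low values in the libraries where Fasn was low. Over the 8 libraries, each taken against its group mean, 6 of 31 members (Dhcr7, Srebf1, Srebf2, Scap, Fasn and Scd2) correlated at 0.8 or more in size with the first principal component of the 9171 tested genes whose mean log2 CPM was above 4, beside 24.1% of those genes. The base composition of transcripts moved with the same libraries. The median deviation of the genes in the highest GC quintile minus that in the lowest GC quintile was -0.39 in T1-5 and -0.23 in S3-1, 0.26, 0.23 and 0.26 in T1-1, T1-3 and S1-6, and -0.04, 0.01 and -0.06 in T1-4, S1-4 and S3-4. GC content was 57.9% in both Fasn and Srebf2, 58.4% in Srebf1 and 59.1% in Scap, against 48.2% in Insig1, 46.2% in Cyp51 and 44.7% in Msmo1. Other genes did not follow that order. Scd2 at 49.5% GC was low in both S3-1 (-0.60) and T1-5 (-0.38), whereas Pmvk at 57.0% GC was above its group mean in both (0.39 and 0.07). The part of base composition in these deviations was not tested. With counts offset by GC content, the log2 fold change of Srebf1 was -0.34 (SE 0.15, edgeR adjusted p = 0.382) and that of Scd1 was -0.49 (SE 0.19, adjusted p = 0.280).

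**Figure D5:**
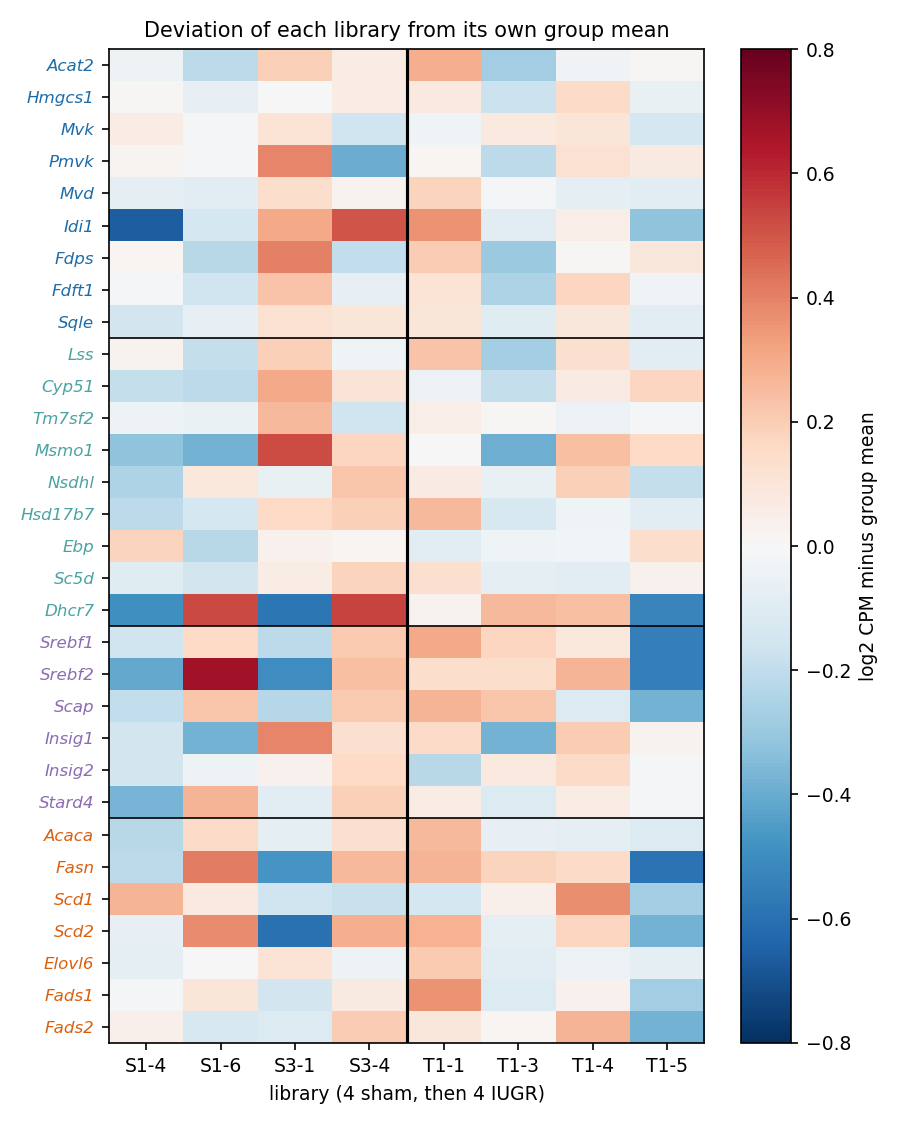
Log2 CPM minus the mean of the sample's own group (colour) for the 31 genes (rows, in role order) in 4 sham and 4 IUGR libraries (columns). In S3-1 most sterol enzymes and Insig1 are above the group mean while Srebf2, Fasn and Scd2 are below it, and in T1-5 Fasn and Srebf2 are both below.

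Other genes of lipid metabolism were taken from 8 lists, of which 91 of 101 genes were tested. None was called in edgeR's test, beside 1.46% of all genes, or in limma-voom, beside 328 of 13707 genes. In DESeq2's Wald test 1, Fads6, was called, beside 425 of 13707 genes. In edgeR's test, 9 of 91 had an unadjusted p under 0.05, beside 11.1%, and 6 of 91 had groups that did not overlap, beside 7.14%. The median log2 fold change was -0.07. The 8 genes of other sterol synthesis had a median of -0.09, the 6 of SREBP processing -0.04, the 9 of sterol efflux, storage and turnover -0.12 and the 13 of the isoprenoid branch -0.06. The 16 genes of acetyl-CoA and NADPH supply had a median of -0.09, the 9 of elongation and desaturation 0.02 and the 17 of fatty acid binding, activation and use -0.003.

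The list with the lowest median was sterol uptake and trafficking, at -0.19 over 13 genes, 9 of which had estimates below 0. Its members Lrp2 and Lipa were lower in each of the 4 IUGR samples than in any sham sample. Lrp2, an endocytic receptor of apolipoproteins and other ligands, ranged from 25.5 to 37.7 CPM in IUGR and from 42.6 to 71.1 CPM in sham samples, with a log2 fold change of -0.82 (SE 0.19, edgeR adjusted p = 0.0655). Its adjusted p was 0.00633 in DESeq2's Wald test, with a log2 fold change of -0.80, and 0.0421 in edgeR's test without S3-1, with -0.95, so each passed the p threshold but not the fold threshold. Lipa, the lysosomal lipase that frees cholesterol from its esters, ranged from 15.3 to 33.31 CPM and from 33.33 to 47.6 CPM, with -0.81 (SE 0.25, adjusted p = 0.172), and without T1-3 it was called (-1.02, edgeR adjusted p = 0.0465). With the choroid plexus score as a covariate, the log2 fold change was 0.03 (SE 0.29) for Lipa and -0.98 (SE 0.36) for Lrp2. Neither passed adjustment in that fit, which cannot tell the score from the group.

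Groups were also separate for Erlin2, Fads6 and Acsl6. Erlin2, a protein of the endoplasmic reticulum membrane, ranged from 92.6 to 107 CPM in IUGR and from 111 to 139.6 CPM in sham samples, with -0.28 (SE 0.12, edgeR adjusted p = 0.416). Fads6, a member of the fatty acid desaturase family, ranged from 3.22 to 4.34 CPM in IUGR and from 1.202 to 2.21 CPM in sham samples, with 1.07 (SE 0.29, adjusted p = 0.117). Acsl6, a long-chain acyl-CoA synthetase, ranged from 59.7 to 65.3 CPM in IUGR and from 42.1 to 54.4 CPM in sham samples, with 0.36 (SE 0.13, adjusted p = 0.243). All 14 neuronal markers also had estimates above 0 in IUGR, with a median of 0.32 and summed levels of 5707 to 6113 CPM against 4172 to 5142 CPM, and no marker was at 0 in any library. Other marker lists lay on either side of 0. Estimates were above 0 for 7 of 7 oligodendrocyte precursor markers (median 0.45), 8 of 9 endothelial and pericyte markers (0.40), 10 of 10 meningeal fibroblast markers (1.2), 9 of 9 microglia and macrophage markers (0.30) and 8 of 8 erythroid markers (0.43). They were below 0 for 13 of 14 cell cycle markers (median -0.10) and 8 of 12 radial glia and neural stem cell markers (-0.11), besides the choroid plexus and identity lists. Summed levels were 138 to 288 CPM against 97.4 to 161 CPM for the oligodendrocyte precursor list and 416 to 611 CPM against 353 to 469 CPM for the endothelial list. In edgeR's test none of the neuronal, oligodendrocyte precursor and endothelial markers was called, with an unadjusted p under 0.05 for 7 of 14, 4 of 7 and 2 of 9, and their part in the Fads6 and Acsl6 values was not tested.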

How the data were processed

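Total RNA of 4 IUGR and 4 sham E15.5 hippocampi was sequenced as single reads from strand-preserving libraries. The authors deposited raw counts of reads per gene, without normalization; the submitters' processing notes name Novoalign 2.8 and mm10 (GRCm38). The counting program, annotation and strand setting are not given in the sources used here. Identifiers were matched to GENCODE M21 (16124 of 16397). Protein-coding genes whose count averaged 10 or more but below 50000 (13707 in all) were fitted together with edgeR 4.0.16 (TMM, quasi-likelihood test) in R 4.3.3, with Benjamini-Hochberg adjustment over all of them. The call rule (adjusted p 0.05 or lower, difference of 1 or more on the log2 scale) follows the study. Log2 CPM used a prior count of 2. Alternatives used DESeq2 1.42.0, limma 3.58.1 (voom), other scalings and filters, each sample left out, sham prefixes apart, and Xist or choroid plexus markers as covariates; removal of T1-1 and T1-4 together, GC offsets (20 bins) and a block on the number ending the sample name were added after seeing the data. Fits were tested on simulated data. The members and lists were chosen with earlier results of these data known. Each member is named, with values in every sample for Scd1 (unadjusted p under 0.05), Msmo1 (added after its values were seen) and 8 regulators and enzymes; related genes are named where p was under 0.05 without overlap between groups, except 1 that is not reported here. Chi-square per degree of freedom was at least 29.5 in each of the 12 within-group pairs, so each sample counted once. Promoter sequences came from RefSeq (GRCm38.p6); 7 members had no window.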

Additional observations from a re-analysis of the deposited data

Results flagged for a closer look

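A single sample lay far from the other 3 of its group for 4 genes, judged by its gap to the nearest sample as a share of the group's range on the log2 CPM scale and set against the 95% limit of Dixon's test for 4 samples. In IUGR, T1-5 was low for Srebf2 (87.6 CPM, ratio 0.839) and for Fasn (389.8 CPM, ratio 0.865). T1-1 was high in the IUGR group for Acaca (100.1 CPM, ratio 0.880) and for Elovl6 (112 CPM, ratio 0.870). No sham sample was marked in this way. Of 66 groups examined (31 genes and 2 branch means in each group), chance alone marks about 1 in 20, or 3.3.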

How the results depend on the processing

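The count of called members was 0 under each of 23 alternatives, and of 713 member values under them 650 kept the sign of the estimate. The alternative that called genes on the adjusted p alone refitted nothing, so its member values kept their sign by construction. Scd1 kept its sign under all 23, with log2 fold changes from -0.75 to -0.29 and adjusted p from 0.157 to 0.841; its unadjusted p was above 0.05 when T1-1, T1-3, T1-5, S1-4 or S1-6 was left out, against the S3 samples alone, with the choroid plexus covariate and with the replicate block. No member had an unadjusted p under 0.05 without T1-1, T1-3, T1-5, S1-4 or S1-6 and with the block, beside 1231 to 1654 of 13707 genes. Msmo1 and Insig1 passed against the S3 samples alone, beside 1338 of 13707 genes. Lss, Insig1 and Fads2 passed with the choroid plexus covariate, beside 1773. Scd1 and Fads1 passed without T1-1 and T1-4, beside 1916, and Srebf1 and Scd1 passed with GC offsets, beside 1690. With the choroid plexus covariate the sterol median was -0.25, the fatty acid median -0.53 and their difference 0.285. That covariate cannot be told apart from the group. Without T1-1 and T1-4 the fatty acid median was -0.35. The sterol median was 0.0404 against the S1 samples alone and 0.00331 with the Xist covariate. With 1 sample left out, the medians ranged from -0.12 to -0.02 (sterol) and from -0.20 to -0.04 (fatty acid), and their difference from -0.08 to 0.15. Genes called among all tested, 200, became 425 (DESeq2), 328 (limma-voom), 73 (mean count of at least 50), 0 (S1 only; 1053 at an unadjusted p under 0.05), 2 (S3 only) and 0 (Xist covariate; 966 at an unadjusted p under 0.05). They ranged from 41 (without S1-4) to 298 (without T1-5) with 1 sample left out, with 65 without T1-1, 111 without T1-4, 105 without S3-1, 60 without S3-4 and 128 without S1-6. Of related lipid genes, 1 was called by DESeq2 (Fads6, adjusted p = 0.0464) and between 0 and 1 with 1 sample left out (Lipa without T1-3, adjusted p = 0.0465). The cause of these shifts was not tested. A replicate block on the number that ends the sample name was added after seeing the data; T1-1 and S3-1 share a number, as do T1-4, S1-4 and S3-4. The labels do not say that these numbers link samples, and the deviations from the group means correlated, across genes, at -0.11, -0.09 and 0.09 in the 3 same-numbered pairs of an IUGR and a sham sample. With the block, T1-3, T1-5 and S1-6, which share their number with no other sample, did not inform the difference between groups. That difference rested on T1-1 and T1-4, the samples with the lowest choroid plexus markers, against S3-1, S1-4 and S3-4. In this fit 479 genes and 2 related lipid genes were called (Lipa, -1.39, adjusted p = 0.0141, and Elovl7, -3.24, adjusted p = 0.00143, in edgeR's test). The sterol median was -0.10 and the fatty acid median -0.01. Depth limits Idi1 most, at a mean count of 52; mean counts were at least 143 for the other members.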

Other observations

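A further 3 genes of fatty acid metabolism had an unadjusted p under 0.05 in edgeR's test with groups that overlapped; they were chosen after their values were seen. Elovl7, an elongase of long-chain fatty acids, was at 0.974, 6.39, 2.44 and 11.9 CPM in T1-1, T1-3, T1-4 and T1-5, and at 24.0, 19.2, 11.9 and 15.7 CPM in S1-4, S1-6, S3-1 and S3-4 (log2 fold change -1.70, SE 0.59, adjusted p = 0.243). Its lowest samples, T1-1 and T1-4, were also those with the lowest choroid plexus markers. Acacb, the acetyl-CoA carboxylase of mitochondria, had an IUGR mean of 2.83 ± 0.623 CPM and a sham mean of 5.73 ± 1.67 CPM (SD, n = 4; log2 fold change -1.01, SE 0.30, adjusted p = 0.160), and its lowest samples were likewise T1-4 (2.19 CPM) and T1-1 (2.40 CPM). Thrsp, a regulator of lipogenesis, was at 1.58 ± 0.603 and 3.82 ± 1.58 CPM (log2 fold change -1.27, SE 0.41, adjusted p = 0.202). Its lowest sample was T1-1 (0.749 CPM), but T1-4 (2.19 CPM) was its highest IUGR sample. The part of choroid plexus cells in the values of these genes was not tested.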
